A study of Mus musculus with 12 samples.

Results

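To see what diabetes changed in the kidney of mice that lack ANRIL, diabetic knockout mice (KO-D) were set against non-diabetic mice of the same genotype (KO-C). The comparison uses 6 of the 12 libraries of the study, 3 KO-D and 3 KO-C, and replicate numbers 1 to 3 are those of the labels. Both groups carried the same deletion, so nothing in the comparison shows what the deletion itself does. The knockout strain was 129S6/SvEvTac-Del[4C4-C5]1Lap/Mmcd. An age of 8 weeks was given for all animals, with no word on whether it holds for the start or the end of the experiment, and the study used male mice only. KO-D mice had received streptozotocin into the peritoneum at 50 mg/kg on each of 5 days and were killed 2 months later. KO-C littermates were given citrate buffer. Streptozotocin is an alkylating toxin that enters cells through the glucose transporter Slc2a2 and kills pancreatic beta cells, and the proximal tubule carries the same transporter, so the drug and the diabetes it brings on cannot be told apart here. The wild type control (WT-C) and wild type diabetic (WT-D) groups, also 3 mice each, were used only to ask where the response of the knockout differed. Each library was poly(A) RNA-seq of the renal cortex of 1 mouse. Of 55421 annotated genes, 18461 had enough reads to be tested, and all of them entered the comparison.

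The proximal tubule, the bulk of the renal cortex, reabsorbs glucose, phosphate, amino acids and organic anions, makes glucose from lactate and amino acids, and burns fatty acids in a dense population of mitochondria. In diabetes it carries an increased load of glucose, and injured tubule cells are known to lose transporters, to arrest in the cell cycle under p53 and its target Cdkn1a (p21), and to signal to leukocytes and fibroblasts. ANRIL is the long non-coding RNA read antisense to the Ink4 genes Cdkn2a and Cdkn2b, which code for inhibitors of the cyclin-dependent kinases. Type I and II interferons induce antiviral effectors and GTPases through STAT and IRF transcription factors, which bind the interferon-stimulated response element of their promoters.

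Values are CPM (counts per 1000000 reads of the library) scaled by the trimmed mean of M values (TMM), given in the order of replicates 1, 2 and 3. Log2 changes are KO-D minus KO-C on log2(CPM + 0.1), a scale that understates the change of genes of low level. A gene was called where limma's test, adjusted by Benjamini and Hochberg over all 18461 genes, gave an adjusted p under 0.01, and "rose" or "fell" is used of called genes only. The KO-C libraries held 34242939 to 37062425 counted reads and the KO-D libraries 23781928 to 28894558. Within a group the libraries correlated at 0.969 to 0.990, and the first principal component of the 6 libraries, 62.9% of their variance, placed all KO-C mice between -60.4 and -47.8 and all KO-D mice between 50.1 and 62.7. On the second component, 19.3% of the variance, KO-C replicate 3 (-35.6) and KO-D replicate 1 (-46.2) lay apart from the other 4. The tissue label held: Kap was at 41265, 48546 and 40493 CPM in the KO-C mice and 18755, 14516 and 15250.0 CPM in the KO-D mice, Umod at 1439, 1522 and 1274 CPM in the KO-C mice and 934, 2084 and 1181 CPM in the KO-D mice, and no gene of a pancreas list passed the filter. ANRIL is not named in the annotation used here. Cdkn2a had 0 reads in all 6 libraries, which allows up to 3 reads, or 0.0809 to 0.126 CPM before scaling, in each. Cdkn2b was at 2.96, 0.349 and 0.0290 CPM in the KO-C mice and 0.0632, 0.985 and 0.506 CPM in the KO-D mice (log2 change -0.24, adjusted p = 0.87), with its groups overlapping.

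Promoters are shown first for interferon-induced genes and for genes of the cell cycle, as the 140 bases that end at the start site, from RefSeq on GRCm38.p6, each read 5′ to 3′ in the direction of its gene. The genes were picked after their values and windows had been seen. In the promoters of the interferon-induced genes below, all of which rose, capitals mark GAAANNGAAA on either strand, the core of the interferon-stimulated response element. Bst2 is the surface protein tetherin, Ifit1 binds viral RNA, and Tgtp1 and Gbp3 are GTPases of host defence.
Bst2 (chr8:71537473-71537612, minus strand): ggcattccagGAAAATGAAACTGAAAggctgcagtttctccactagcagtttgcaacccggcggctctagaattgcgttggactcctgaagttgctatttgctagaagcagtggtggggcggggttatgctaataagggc
Ifit1 (chr19:34640749-34640888, plus strand): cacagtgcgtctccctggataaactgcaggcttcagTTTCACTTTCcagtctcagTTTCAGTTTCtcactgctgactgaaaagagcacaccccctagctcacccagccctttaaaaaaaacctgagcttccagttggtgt
Tgtp1 (chr11:48992247-48992386, minus strand): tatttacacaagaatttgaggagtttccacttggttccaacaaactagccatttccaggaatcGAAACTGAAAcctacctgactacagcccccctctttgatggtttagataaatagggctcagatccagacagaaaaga
Gbp3 (chr3:142559904-142560043, plus strand): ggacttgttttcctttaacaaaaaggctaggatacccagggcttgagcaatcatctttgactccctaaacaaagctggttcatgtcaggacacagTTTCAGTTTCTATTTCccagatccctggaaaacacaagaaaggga
Windows of 250 bases before to 50 after the start held this motif in 3.44% of all 32851 windows of the table, in 3.21% of those of tested genes, in 8.10% of those of genes that rose and in 2.63% of those of genes that fell. Of the interferon-stimulated effectors described below, 33 of 45 had a window, and 16 of 38 windows (42.1%) held it. Of the interferon-inducible GTPases, 10 of 16 had a window, and 9 of 11 windows (81.8%) held it. The gamma-activated site TTCNNNGAA was in 8.30% of all windows, in 8 of 38 (21.1%) of the effectors and in 6 of 11 (54.5%) of the GTPases.

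Capitals in the next pair mark CCAAT, on either strand, in the promoters of Top2a and Bub1. Top2a is the topoisomerase of dividing cells, Bub1 a kinase of the spindle checkpoint, and both rose.
Top2a (chr11:99024190-99024329, minus strand): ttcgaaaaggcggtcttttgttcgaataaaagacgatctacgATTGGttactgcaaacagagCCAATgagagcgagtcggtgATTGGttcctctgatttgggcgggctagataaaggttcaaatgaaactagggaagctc
Bub1 (chr2:127831860-127831999, minus strand): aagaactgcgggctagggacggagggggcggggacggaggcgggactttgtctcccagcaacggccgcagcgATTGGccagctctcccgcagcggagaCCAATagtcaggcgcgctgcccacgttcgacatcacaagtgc
CCAAT was in 37.4% of all windows and in 32 of 43 windows (74.4%) of the cell cycle genes, of which 40 of 49 had a window. It was in 36.7% of the windows of genes that rose and in 38.8% of those that fell. The share was raised in other lists too, at 12 of 18 windows (66.7%) of MHC class I presentation, 21 of 37 (56.8%) of p53 targets and 27 of 53 (50.9%) of amino acid breakdown, in which genes fell, and it was 9 of 45 in proximal tubule transport. All motifs were searched on both strands, and GAAANNGAAA can share bases with TTCNNNGAA. A match describes letters in a window and is no evidence of binding.

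At adjusted p under 0.01, 3165 genes (17.1% of those tested) were called, of which 1227 (6.65%) rose and 1938 (10.5%) fell in KO-D. At an adjusted p under 0.05 the counts were 2514 and 3220. Increases were larger than decreases: the median log2 change was 1.50 over the genes that rose and -1.06 over those that fell, 274 genes rose by at least 2 on the log2 scale, and 118 fell by as much. The shares of 6.65% and 10.5% are the background against which the gene lists below are read. The groups did not overlap at 8865 genes (48%), 4169 with KO-D higher and 4696 with KO-D lower. The sides differed in level: genes that rose had a median of 1.60 CPM in KO-C, those that fell 35.6 CPM, and all tested genes 7.29 CPM. Of the 1141 genes with a mean between 100 and 1000 CPM, 338 fell and 21 rose, whereas of the 4171 under 1 CPM, 48 fell and 298 rose. As a share of all reads, the genes that rose went from 0.878 to 0.953% in KO-C to 2.88 to 3.20% in KO-D, and the genes that fell from 18.8 to 20.6% to 10.3 to 11.9%.

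Over all tested genes the log2 change had a median of 0.02. That median and the balance of the calls moved with the scaling, and the TMM factors of the KO-C libraries were 0.921 to 0.974 and those of the KO-D libraries 1.10 to 1.28. Without scaling the median moved to 0.35 and the calls to 1789 higher and 640 lower, and upper-quartile scaling gave a median of 0.15 with 1636 and 1384. Genes that rose were longer and poorer in GC (median 3680 bases and 47.1%) than those that fell (2160 bases and 55.1%), against 2853.5 bases and 49.4% over all. With trends on GC content and length removed, 1126 genes rose and 1991 fell, and 2253 (71.2%) of the calls remained. With reads thinned to equal depth the counts were 1130 and 1801. Without KO-D replicate 3 they fell to 562 and 881, and without KO-C replicate 2 to 740 and 964. Without KO-C replicate 1, 1099 genes fell, and without KO-C replicate 3, 756 rose. What part the read depth, GC content and length had in single calls was not tested.

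**Figure D1:**
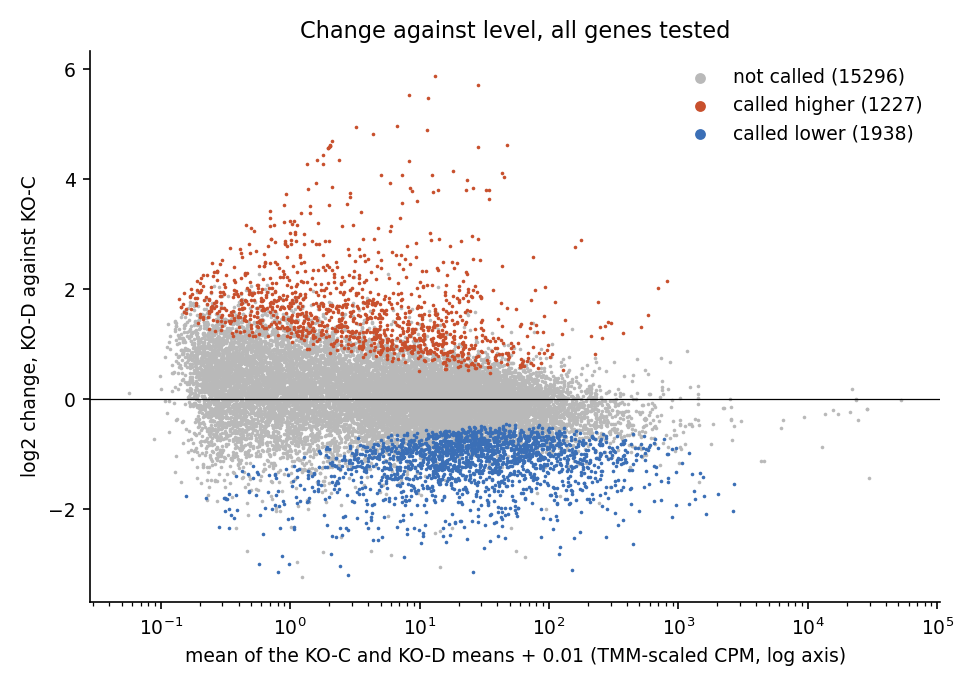
Log2 change of KO-D against KO-C (vertical axis) by mean level in CPM over the 6 libraries (horizontal log axis), 1 point per tested gene, with the 1227 genes that rose, the 1938 that fell and 15296 not called in separate colours. Genes that rose lie mostly at low levels and genes that fell mostly at high ones.

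Cdkn1a (ENSMUSG00000023067, chromosome 17, 29090976 to 29100727 on mm10), the p53 target that arrests the cell cycle as p21, was among the most clearly changed genes. Its level was 4.55, 2.92 and 3.19 CPM in the KO-C mice and 88.5, 65.8 and 120.0 CPM in the KO-D mice (mean ± SD 3.55 ± 0.874 against 91.4 ± 27.2 CPM, n = 3 mice each, log2 change 4.63, SE 0.29, adjusted p = 4.3e-06), so every diabetic mouse was far above every control. Of 34 tested p53 targets 20 rose and none fell, with a median log2 change of 1.19. Eda2r, a death-domain receptor of the TNF receptor family, was at 0.147, 0.127 and 0.319 CPM in the KO-C mice and 11.3, 4.50 and 9.87 CPM in the KO-D mice (log2 change 4.82, SE 0.41, adjusted p = 2.4e-05). Inka2, an inhibitor of the kinase Pak4, was at 0.469, 0.254 and 0.290 CPM in the KO-C mice and 5.84, 4.66 and 5.74 CPM in the KO-D mice (log2 change 3.68, SE 0.26, adjusted p = 9.9e-06), and Phlda3, a repressor of Akt, rose by 2.83. Ccng1 (cyclin G1) rose by 1.31 and Mdm2, the ligase that degrades p53, by 1.08, although without KO-D replicate 3 Mdm2 had an adjusted p of 0.0119. Gdf15, a secreted stress cytokine, was not called (log2 change 0.89, SE 0.49, adjusted p = 0.18). The count of p53 targets that rose stayed between 16 and 19 with any of the 6 libraries left out.

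Of 49 tested genes of the cell cycle, 19 rose and none fell, with a median log2 change of 1.17. Mki67, the marker of proliferating cells, was at 1.12, 2.38 and 0.956 CPM in the KO-C mice and 8.81, 7.32 and 7.32 CPM in the KO-D mice (log2 change 2.42, SE 0.32, adjusted p = 2.0e-04). Top2a was at 0.851, 0.983 and 1.19 CPM in the KO-C mice and 5.34, 4.63 and 5.20 CPM in the KO-D mice (log2 change 2.23, SE 0.39, adjusted p = 0.00106). The spindle factor Tpx2 rose by 2.35 and the mitotic kinase Aurkb by 2.42, while the central cyclin-dependent kinase Cdk1 was not called (log2 change 1.55, SE 0.43, adjusted p = 0.0150). All of these were rare, with sums over the 49 genes of 160 to 192 CPM in KO-C and 250 to 319 CPM in KO-D. The count was 30 without scaling, 10 with no filter on low values, 9 with a minimum mean of 1 CPM, 12 with reads thinned to equal depth, 10 without KO-C replicate 1, 7 without KO-C replicate 3, 9 without KO-D replicate 1, 12 without KO-D replicate 2 and 7 without KO-D replicate 3. Of 7 inhibitors of cyclin-dependent kinases and neighbours of the Ink4 locus, Cdkn1a and Cdkn1c (p57) rose. Cdkn1c rose by 0.98, and its adjusted p ran from 0.00581 to 0.0256 with single libraries left out. Mtap, a neighbour of the Ink4 locus, was at 21.3, 18.0 and 17.3 CPM in the KO-C mice and 23.2, 21.9 and 23.9 CPM in the KO-D mice (log2 change 0.29, SE 0.12, adjusted p = 0.0904).

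**Figure D2:**
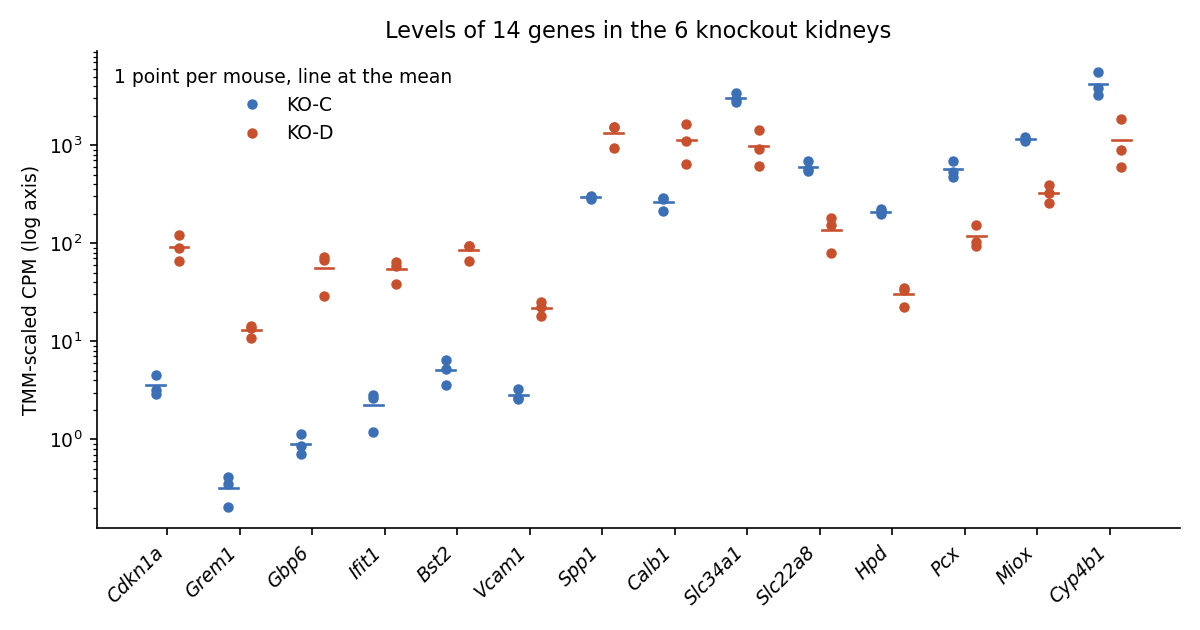
Level in CPM (log axis) of 14 genes in each of the 3 KO-C and 3 KO-D mice, 1 point per mouse. The 14 were picked from called genes, and their groups are apart, as at 48% of all tested genes. Cdkn1a, Grem1, Gbp6, Ifit1, Bst2, Vcam1, Spp1 and Calb1 are higher in KO-D and Slc34a1, Slc22a8, Hpd, Pcx, Miox and Cyp4b1 lower.

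Of 45 tested effectors and sensors that interferons induce, 42 rose and none fell (median log2 change 2.59), and their summed level went from 278 to 345 CPM in KO-C to 1386 to 1776 CPM in KO-D. Ifit1 (ENSMUSG00000034459, chromosome 19, 34640871 to 34650009) was at 2.67, 2.82 and 1.19 CPM in the KO-C mice and 58.5, 38.5 and 64.9 CPM in the KO-D mice (mean ± SD 2.23 ± 0.903 against 54.0 ± 13.8 CPM, n = 3 mice each, log2 change 4.59, SE 0.47, adjusted p = 5.7e-05). Bst2 (ENSMUSG00000046718, chromosome 8, 71534255 to 71537456), which tethers budding virus to the cell, was at 5.22, 6.38 and 3.62 CPM in the KO-C mice and 93.6, 65.1 and 94.3 CPM in the KO-D mice (log2 change 4.04, SE 0.39, adjusted p = 4.2e-05). Ifi27, a small mitochondrial protein, was at 42.6, 46.4 and 32.9 CPM in the KO-C mice and 337, 217 and 277 CPM in the KO-D mice (log2 change 2.76, SE 0.28, adjusted p = 5.3e-05). In each of these, the lowest KO-D mouse was above the highest KO-C mouse, and the groups were apart at 48% of all tested genes. Oas2, which makes the 2′-5′ oligoadenylates that activate RNase L, rose by 4.90. Isg15, a ubiquitin-like modifier, was at 2.08, 1.62 and 0.695 CPM in the KO-C mice and 14.9, 17.3 and 20.3 CPM in the KO-D mice. Rsad2 (viperin) rose by 1.95, with an adjusted p of 0.0103 without KO-D replicate 3. Oas1g (4.34) has close relatives in the Oas1 cluster, and how reads were split among them is uncertain.

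All 16 interferon-inducible GTPases tested rose, with a median log2 change of 2.65 and summed levels of 68.0 to 98.6 CPM in KO-C against 344 to 589 CPM in KO-D. Gbp6 (ENSMUSG00000104713, chromosome 5, 105270702 to 105293698), a guanylate-binding protein, was at 0.704, 0.857 and 1.13 CPM in the KO-C mice and 66.7, 28.6 and 72.8 CPM in the KO-D mice (log2 change 5.72, SE 0.45, adjusted p = 1.3e-05). Iigp1, which attacks the vacuoles of parasites, was at 1.64, 1.71 and 1.51 CPM in the KO-C mice and 24.5, 18.6 and 28.4 CPM in the KO-D mice (log2 change 3.78, SE 0.34, adjusted p = 2.9e-05). Tgtp1 was at 2.55, 2.60 and 2.69 CPM in the KO-C mice and 43.6, 33.6 and 53.9 CPM in the KO-D mice and Tgtp2, a nearly identical copy, rose by 3.81, so the reads of this pair, and of Gbp6 and Gbp10 (4.95), may have been divided between copies. Of 19 genes of interferon signalling, 6 rose and none fell (median 0.26). Irf7, the factor that amplifies type I interferon, was at 4.46, 6.95 and 3.10 CPM in the KO-C mice and 103, 64.2 and 79.6 CPM in the KO-D mice (log2 change 4.11, SE 0.46, adjusted p = 8.9e-05). Irf9 rose by 1.99 and Stat2 by 1.78, and the transcripts of the receptors Ifnar1, Ifnar2, Ifngr1 and Ifngr2 were not called. The counts of 42 and 16 stayed at 38 to 42 and 15 to 16 with any of the 6 libraries left out.

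Of 19 genes of antigen presentation by MHC class I 11 rose (median 0.83), and of 10 genes of class II 2 rose. B2m, the light chain of class I and among the most abundant genes that rose, was at 275, 292 and 315 CPM in the KO-C mice and 835, 564 and 821 CPM in the KO-D mice (log2 change 1.31, SE 0.19, adjusted p = 2.8e-04). The peptide transporter Tap1 was at 4.08, 5.17 and 3.74 CPM in the KO-C mice and 17.2, 17.3 and 21.2 CPM in the KO-D mice (log2 change 2.08, SE 0.24, adjusted p = 9.6e-05). H2-K1 rose by 1.40 and H2-Q4 by 1.86, with reads shared among the near-identical class I genes and so uncertain for single members. Ciita, the master regulator of class II (log2 change 0.70, SE 0.20, adjusted p = 0.0163), and the class II chain H2-Aa (log2 change 0.91, SE 0.24, adjusted p = 0.0124) were not called. Without KO-D replicate 1 H2-Aa had an adjusted p of 0.0016. Ctss, the protease that trims the class II invariant chain, rose by 2.07. Ubd, a ubiquitin-like protein induced by interferon gamma and TNF, was at 0.0880, 0.159 and 0.145 CPM in the KO-C mice and 4.26, 3.81 and 5.80 CPM in the KO-D mice (log2 change 4.35, SE 0.32, adjusted p = 1.1e-05), and all diabetic mice were far above the controls.

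Chemokines, adhesion molecules and complement rose in part. Of 40 tested chemokine and receptor entries, in which copies of Ccl19, Ccl21 and Ccl27 genes are listed separately, 13 rose and none fell (median 0.90). Ccl2, which recruits monocytes, was at 0.147, 0 and 0.232 CPM in the KO-C mice and 2.31, 3.25 and 3.57 CPM in the KO-D mice (log2 change 3.94, SE 0.49, adjusted p = 1.6e-04). Cxcl10, a ligand of Cxcr3 on T cells, was at 0.469, 1.08 and 1.33 CPM in the KO-C mice and 8.50, 6.83 and 10.5 CPM in the KO-D mice (log2 change 3.12, SE 0.34, adjusted p = 8.5e-05), and Cxcl9 rose by 3.00. Ccl19 was not called. Of 34 genes of the NF-kB and Toll-like receptor pathway 11 rose and 1, the inhibitor gene Nfkbib, fell. Vcam1 (ENSMUSG00000027962, chromosome 3, 116109949 to 116129688), the adhesion molecule of activated endothelium and injured tubules, was at 3.26, 2.63 and 2.61 CPM in the KO-C mice and 22.2, 17.9 and 25.2 CPM in the KO-D mice (log2 change 2.89, SE 0.24, adjusted p = 2.4e-05). The receptors Tlr1, Tlr2 and Tlr7 rose by 1.81, 2.16 and 2.49, and Nfkb1 was not called (log2 change 0.21, SE 0.15, adjusted p = 0.31). Without KO-D replicate 3, 6 genes of each of these lists rose.

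Of 23 complement genes 11 rose and 1, C4a, fell (median 1.39). C3, the central component, was at 6.75, 7.55 and 9.59 CPM in the KO-C mice and 33.5, 33.9 and 39.0 CPM in the KO-D mice (log2 change 2.15, SE 0.30, adjusted p = 2.8e-04). The serine protease gene C1ra rose by 1.71, the terminal component C7 by 2.68 and the regulator Cfi by 1.79, while C1qa, a product of macrophages, was not called (log2 change 1.01, SE 0.41, adjusted p = 0.0785). Of 14 genes of pyroptosis and necroptosis 6 rose, among them the nucleic acid sensors Zbp1 (3.75) and Aim2 (1.90) and the executioner Mlkl (2.10), and 3 rose without KO-D replicate 3. Csf1, the growth factor of macrophages, was at 3.93, 3.84 and 3.19 CPM in the KO-C mice and 14.6, 18.8 and 15.7 CPM in the KO-D mice (log2 change 2.13, SE 0.19, adjusted p = 2.9e-05).

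Markers of tubular injury were mixed, with 11 of 31 higher, 2 lower and a median log2 change of 1.00. Spp1 (ENSMUSG00000029304, chromosome 5, 104435118 to 104441050), osteopontin, was at 299.98, 297 and 281 CPM in the KO-C mice and 929, 1531 and 1546 CPM in the KO-D mice (mean ± SD 293 ± 10.1 against 1335 ± 352 CPM, n = 3 mice each, log2 change 2.15, SE 0.24, adjusted p = 8.4e-05). Krt20, a keratin of damaged tubules, was at 0.0880, 0 and 0.0290 CPM in the KO-C mice and 1.80, 2.13 and 4.01 CPM in the KO-D mice (log2 change 4.27, SE 0.42, adjusted p = 4.5e-05), and Clu (clusterin), a secreted chaperone, rose by 1.76. In these genes the diabetic mice were above the controls without overlap, and the groups did not overlap at 48% of all tested genes. The usual markers of acute damage did not pass: Havcr1 (KIM-1) was at 20.2, 29.1 and 38.4 CPM in the KO-C mice and 31.2, 69.9 and 80.6 CPM in the KO-D mice (log2 change 0.98, SE 0.32, adjusted p = 0.0332). Lcn2 (NGAL) was at 2.26, 1.84 and 1.10 CPM in the KO-C mice and 1.01, 15.8 and 4.64 CPM in the KO-D mice (log2 change 1.31, SE 0.71, adjusted p = 0.18). Without KO-D replicate 1 both Havcr1 and Lcn2 passed limma's test, with adjusted p of 0.0022 and 0.0071. Neither passed with any other of the 6 libraries left out. Of 29 genes of the ER stress and amino acid response 5 rose and 1 fell, with Atf3 at 0.968, 0.508 and 1.54 CPM in the KO-C mice and 10.2, 7.26 and 23.6 CPM in the KO-D mice (log2 change 3.58, SE 0.41, adjusted p = 1.0e-04) and asparagine synthetase, Asns, up by 1.43. Hspa5 (log2 change -0.06, SE 0.30, adjusted p = 0.90) and Ddit3 (log2 change 0.60, SE 0.19, adjusted p = 0.0293), the chaperone and the death factor of ER stress, were not called.

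Of 35 collagen chains 4 rose and 1 fell, and the count of 4 was 9 with DESeq2, 7 without KO-D replicate 1, without scaling or with GC and length trends removed, and 2 without KO-C replicate 1, KO-D replicate 2 or KO-D replicate 3. Col14a1, a collagen that binds the surface of fibrils, rose by 1.98, and Col15a1, of the basement membrane zone, by 1.50. Col1a1, the major fibrillar chain, was at 3.32, 2.76 and 1.68 CPM in the KO-C mice and 3.10, 6.90 and 4.10 CPM in the KO-D mice (log2 change 0.81, SE 0.43, adjusted p = 0.17). Col3a1 (log2 change 1.44, SE 0.45, adjusted p = 0.0268), Col1a2 (log2 change 1.31, SE 0.36, adjusted p = 0.0148) and the glomerular Col4a3 (log2 change -0.06, SE 0.17, adjusted p = 0.82) were not called either. Without KO-D replicate 1 Col1a2 had an adjusted p of 0.0072. Of 38 other matrix proteins 12 rose and none fell (median 0.97). Fn1 (ENSMUSG00000026193, chromosome 1, 71585520 to 71653200), fibronectin, was at 4.96, 6.88 and 5.04 CPM in the KO-C mice and 18.7, 46.3 and 35.9 CPM in the KO-D mice (log2 change 2.48, SE 0.32, adjusted p = 1.8e-04). Ccn2, the connective tissue growth factor, rose by 1.75, the microfibril protein Fbn1 by 1.83 and the proteoglycan Bgn by 1.45. This count was 6 without KO-C replicate 2, KO-C replicate 3 or KO-D replicate 3, and 7 without KO-D replicate 2.

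In the basement membrane, 4 of 20 genes rose. Nid1, which links laminin to collagen IV, was at 11.3, 10.7 and 9.50 CPM in the KO-C mice and 29.9, 45.1 and 43.4 CPM in the KO-D mice (log2 change 1.88, SE 0.21, adjusted p = 8.4e-05), and Lama2, a laminin of mesenchymal cells, rose by 2.04. Hspg2 (perlecan), the large heparan sulphate proteoglycan, was not called (log2 change -0.52, SE 0.34, adjusted p = 0.27). Of 30 matrix proteases and inhibitors 9 rose and none fell, including the collagenase activator Mmp14 (1.70), the gelatinase Mmp2 (1.71) and the inhibitor Serpine2 (2.06). Of 25 integrin subunits 7 rose, among them Itgb3 (2.02), Itgax of dendritic cells (1.64) and Itga8 of mesangial cells (1.60). Without KO-D replicate 3 the basement membrane count was 2 and the integrin count 4, and without KO-C replicate 1 the integrin count was 4 as well.

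Grem1 (ENSMUSG00000074934, chromosome 2, 113746164 to 113758646), the secreted antagonist of bone morphogenetic proteins (BMPs), had one of the largest increases of the comparison. It was at 0.205, 0.412 and 0.348 CPM in the KO-C mice and 10.8, 13.8 and 14.4 CPM in the KO-D mice (mean ± SD 0.322 ± 0.106 against 12.99 ± 1.89 CPM, n = 3 mice each, log2 change 4.98, SE 0.30, adjusted p = 4.3e-06). The genes of TGF-beta and BMP signalling, Grem1 among them, moved both ways, 6 of 31 higher and 3 lower. Id1, a direct target of BMP, was at 10.4, 9.74 and 8.58 CPM in the KO-C mice and 4.83, 5.02 and 4.28 CPM in the KO-D mice (log2 change -1.01, SE 0.17, adjusted p = 9.7e-04), Tgfb2 rose by 1.45, and Tgfb1 rose by 0.95 with an adjusted p of 0.00590 to 0.0340 over the 6 left-out libraries. Of 37 genes of VEGF, PDGF, EGF and IGF signalling 5 rose and 3 fell. Areg (amphiregulin), a ligand of the EGF receptor, was at 0.205, 0.0634 and 0.0290 CPM in the KO-C mice and 2.05, 1.08 and 1.93 CPM in the KO-D mice (log2 change 3.22, SE 0.42, adjusted p = 1.9e-04), Vegfd rose by 1.74 and the IGF-binding protein gene Igfbp4 fell by 1.54. Vegfa, the endothelial growth factor of podocytes, was not called (log2 change -0.38, SE 0.17, adjusted p = 0.11). Without KO-D replicate 3, 2 genes of each of these lists rose, and without scaling 9 of the growth factor list did.

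Of 11 genes of the renin-angiotensin system, 2 rose and 1 fell. Ren1, the renin of juxtaglomerular cells, was at 23.5, 48.9 and 26.5 CPM in the KO-C mice and 126, 117 and 128 CPM in the KO-D mice (log2 change 1.98, SE 0.30, adjusted p = 4.5e-04). The receptor gene Mas1 rose by 1.57, with an adjusted p of 0.0114 without KO-D replicate 3. Ace, the angiotensin-converting enzyme of the brush border, fell by 1.52, and its adjusted p ran from 0.00298 to 0.0158 with single libraries left out. Agt (log2 change -0.58, SE 0.39, adjusted p = 0.27) was not called.

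Of 45 tested transport genes of the proximal tubule, 22 (48.9%) fell and none rose, with a median log2 change of -0.98. Their summed level was 18671 to 25370 CPM in KO-C and 9490 to 12367 CPM in KO-D, 1.97 times lower. In bulk tissue, fewer cells of a type and less RNA per cell cannot be told apart. Slc22a8 (ENSMUSG00000063796, chromosome 19, 8591254 to 8611835), the organic anion transporter OAT3, was at 565, 549 and 697 CPM in the KO-C mice and 179, 79.9 and 154 CPM in the KO-D mice (mean ± SD 604 ± 80.9 against 138 ± 51.5 CPM, n = 3 mice each, log2 change -2.21, SE 0.32, adjusted p = 3.2e-04). The nucleoside transporter Slc28a1 fell by 1.70 and the urate transporter Slc22a12 by 1.63. Each of the glucose transporters missed the threshold: Slc5a2 (SGLT2) was at 109, 146 and 182 CPM in the KO-C mice and 77.4, 13.3 and 44.3 CPM in the KO-D mice (log2 change -1.99, SE 0.52, adjusted p = 0.0106). Without KO-D replicate 1 Slc5a2 had an adjusted p of 0.0023. Slc5a1 (SGLT1) was at 42.0, 41.4 and 69.4 CPM in the KO-C mice and 40.7, 61.8 and 57.2 CPM in the KO-D mice (log2 change 0.09, SE 0.23, adjusted p = 0.81), and Slc2a2 (GLUT2) at 113, 126 and 168 CPM in the KO-C mice and 142, 61.6 and 113 CPM in the KO-D mice (log2 change -0.43, SE 0.30, adjusted p = 0.30). The endocytic receptor Lrp2 (megalin) was not called (log2 change -0.82, SE 0.23, adjusted p = 0.0179), and its partner Cubn fell by 0.72 with an adjusted p of 0.0111 to 0.0315 over the left-out libraries. The count of 22 was 11 without scaling, 13 without KO-C replicate 2, 11 without KO-C replicate 3 and 10 without KO-D replicate 3.

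Of 16 genes of phosphate and calcium handling 4 rose and 4 fell. Slc34a1 (ENSMUSG00000021490, chromosome 13, 55398187 to 55415592), the main phosphate transporter of the proximal tubule, was at 2761, 2957 and 3421 CPM in the KO-C mice and 1413, 610.2 and 909 CPM in the KO-D mice (log2 change -1.72, SE 0.31, adjusted p = 0.00138). Slc34a3, its paralog, fell by 2.49, the scaffold gene Slc9a3r1 (NHERF1) by 1.53 and the parathyroid hormone receptor gene Pth1r by 1.75. In the distal segments Calb1 (ENSMUSG00000028222, chromosome 4, 15881264 to 15908064), the calcium buffer calbindin, was at 215, 286 and 285 CPM in the KO-C mice and 1628, 639.7 and 1110.0 CPM in the KO-D mice (log2 change 2.02, SE 0.28, adjusted p = 2.7e-04). The calcium channel Trpv5 was at 7.25, 6.22 and 10.4 CPM in the KO-C mice and 49.9, 29.5 and 37.5 CPM in the KO-D mice (log2 change 2.28, SE 0.22, adjusted p = 4.5e-05). Klotho, Kl, which works with both Fgf23 and Trpv5, was not called (log2 change 0.00, SE 0.25, adjusted p = 1.00). The 4 genes that fell are of the proximal tubule, and Calb1 and Trpv5 are also members of the distal marker list described with the cell markers.

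In the metabolic lists of the proximal tubule most calls were decreases. Of 9 genes of gluconeogenesis 5 fell and 1 rose. Pcx (ENSMUSG00000024892, chromosome 19, 4510472 to 4621752), pyruvate carboxylase, which makes the oxaloacetate for the pathway, was at 471, 531 and 693 CPM in the KO-C mice and 155, 103 and 93.2 CPM in the KO-D mice (log2 change -2.29, SE 0.27, adjusted p = 1.1e-04). Fbp1, fructose-1,6-bisphosphatase, was at 1037, 1268 and 1336 CPM in the KO-C mice and 536, 382 and 431 CPM in the KO-D mice (log2 change -1.44, SE 0.24, adjusted p = 8.7e-04). Pck1 and G6pc, the first and last enzymes particular to the pathway, fell by 1.76 and 1.68, with adjusted p of 0.00539 to 0.0427 and 0.00453 to 0.0377 over the left-out libraries. Pck1 was at 1843, 1564 and 3975 CPM in the KO-C mice and 1077, 451 and 613 CPM in the KO-D mice, so the groups were apart, as at 48% of all tested genes, although the spread was wide. The count of 5 was 2 without KO-C replicate 2 and 3 without any one of KO-C replicates 1 and 3 and KO-D replicates 2 and 3, without scaling, or with GC and length trends removed. Of 12 genes of polyol, fructose and inositol metabolism 4 fell, or 7 with DESeq2. Miox, which breaks down myo-inositol, was at 1153, 1098 and 1197 CPM in the KO-C mice and 388, 259.6 and 326 CPM in the KO-D mice (log2 change -1.84, SE 0.20, adjusted p = 7.3e-05). Khk, the ketohexokinase that phosphorylates fructose, was at 632, 696 and 706 CPM in the KO-C mice and 182, 209 and 155 CPM in the KO-D mice (log2 change -1.90, SE 0.22, adjusted p = 1.1e-04), and the triokinase gene Tkfc fell by 1.42. Aldose reductase, Akr1b3, did not pass (log2 change -1.21, SE 0.34, adjusted p = 0.0163).

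Amino acid breakdown was the metabolic list with the largest number of calls, 28 of 52 lower (53.8%) and none higher, with a median log2 change of -0.82. Hpd (ENSMUSG00000029445, chromosome 5, 123171807 to 123182727), an enzyme of tyrosine breakdown, was at 196, 222 and 210.5 CPM in the KO-C mice and 33.4, 35.3 and 22.4 CPM in the KO-D mice (mean ± SD 209 ± 12.8 against 30.4 ± 6.93 CPM, n = 3 mice each, log2 change -2.81, SE 0.27, adjusted p = 4.2e-05). Haao, of the kynurenine pathway from tryptophan, was at 202, 219 and 206 CPM in the KO-C mice and 28.2, 45.5 and 25.7 CPM in the KO-D mice (log2 change -2.70, SE 0.32, adjusted p = 1.2e-04). Prodh2, which oxidises hydroxyproline, was at 55.0, 55.0 and 50.2 CPM in the KO-C mice and 17.7, 10.9 and 15.3 CPM in the KO-D mice (log2 change -1.89, SE 0.20, adjusted p = 7.0e-05), and Cbs, the first step of transsulphuration, fell by 1.41. In none of these 4 genes did the groups overlap, as was so at 8865 (48%) of all tested genes. Ass1, argininosuccinate synthase of arginine synthesis, fell by 1.54, with an adjusted p of 0.00191 to 0.0244 over the left-out libraries. The count was 10 without scaling, 14 without KO-C replicate 2, 15 without KO-C replicate 3 and 13 without KO-D replicate 3.

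Of 43 genes of fatty acid oxidation 15 fell and 1 rose (median -0.45). Acads, the short-chain acyl-CoA dehydrogenase, was at 158, 169 and 197 CPM in the KO-C mice and 50.6, 59.3 and 45.1 CPM in the KO-D mice (log2 change -1.76, SE 0.20, adjusted p = 9.0e-05), and the peroxisomal thiolase genes Acaa1a and Acaa1b fell by 1.75 and 2.17. Cyp4b1, a fatty acid hydroxylase, was at 3263, 3791 and 5504 CPM in the KO-C mice and 1854, 594 and 898 CPM in the KO-D mice (log2 change -2.03, SE 0.37, adjusted p = 0.00137). The 1 gene that rose, Cyp4a14, an omega-hydroxylase and target of PPARA, was at 1.12, 0.952 and 1.304 CPM in the KO-C mice and 6.32, 17.7 and 14.8 CPM in the KO-D mice (log2 change 3.30, SE 0.52, adjusted p = 5.2e-04). The gate of the mitochondrial pathway, Cpt1a (log2 change -0.21, SE 0.23, adjusted p = 0.53), and the regulator Ppara (log2 change -0.24, SE 0.54, adjusted p = 0.77) were not called. Of 6 genes of ketone body metabolism 4 fell, with Bdh1 down by 1.10, a count that was 2 without KO-D replicate 3. The 15 decreases in fatty acid oxidation were 5 without scaling, 8 without KO-C replicate 2, 9 without KO-C replicate 3 and 7 without KO-D replicate 3. Of 17 glycolytic genes 4 fell and 3 rose, with lactate dehydrogenase, Ldha, down by 1.10 and the platelet phosphofructokinase gene Pfkp up by 1.29. The 4 glycolytic decreases were 1 without KO-C replicate 2 or KO-D replicate 3, and 2 without scaling or without any one of KO-C replicates 1 and 3 and KO-D replicate 1.

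Of 82 nuclear subunits of the respiratory chain 22 fell and none rose (median -0.49). Ndufs7, of complex I, was at 74.9, 73.6 and 65.7 CPM in the KO-C mice and 10.7, 23.5 and 11.8 CPM in the KO-D mice (log2 change -2.30, SE 0.33, adjusted p = 2.9e-04). Sdhb, of complex II, was at 436, 477 and 412 CPM in the KO-C mice and 176, 195 and 163 CPM in the KO-D mice (log2 change -1.31, SE 0.18, adjusted p = 2.8e-04), and Atp5d of the ATP synthase fell by 1.65. Of 20 genes of the tricarboxylic acid cycle 7 fell (median -0.60), with Suclg1 down by 0.81. Of the 13 genes of the mitochondrial genome none was called, although after scaling all 13 were on the lower side (median -0.24). Before scaling that genome took 16.7 to 20.9% of the reads of KO-C libraries and 20.9 to 24.0% of those of KO-D libraries. Of the ribosomal proteins, 23 of 76 of the mitochondrial and 27 of 78 of the cytosolic ribosome fell and none rose. Mrpl12 was at 184, 210.5 and 184 CPM in the KO-C mice and 63.4, 72.1 and 59.3 CPM in the KO-D mice (log2 change -1.57, SE 0.18, adjusted p = 1.1e-04). Rpl8 was at 289, 296 and 267 CPM in the KO-C mice and 82.3, 125 and 82.9 CPM in the KO-D mice (log2 change -1.58, SE 0.21, adjusted p = 2.3e-04), and Rplp1 fell by 1.81.

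Over all genes, too, decreases were frequent at high levels (338 of 1141 genes between 100 and 1000 CPM). With GC and length trends removed, 22 genes of the respiratory chain, 26 of the mitochondrial ribosome and 28 of the cytosolic ribosome fell. Without scaling the counts were 14, 5 and 11. Without KO-C replicate 2 they were 9, 10 and 14, and without KO-D replicate 3 they were 9, 9 and 13. The ribosomal counts were 12 and 17 without KO-C replicate 1, and 13 and 16 without KO-D replicate 1. The 7 genes of the tricarboxylic acid cycle were 2 without scaling, 2 without KO-C replicate 2 or KO-D replicate 3, and 4 without KO-C replicate 1, KO-C replicate 3 or KO-D replicate 1.

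Detoxification and redox genes were divided. Of 28 antioxidant genes 8 fell and 2 rose. Gpx1, the glutathione peroxidase, was at 931, 1049 and 1078 CPM in the KO-C mice and 321, 265 and 261 CPM in the KO-D mice (log2 change -1.85, SE 0.22, adjusted p = 1.1e-04). Prdx5, a peroxiredoxin of mitochondria and peroxisomes, fell by 2.15. The NRF2 targets Nqo1 (log2 change -0.10, SE 0.21, adjusted p = 0.75) and Hmox1 (log2 change 0.04, SE 0.31, adjusted p = 0.93) were not called. Of 7 NADPH oxidase genes, Cyba (p22phox) fell by 2.06 while Cybb (gp91phox, the phagocyte subunit that Cyba stabilises) rose by 1.93. Cybb was at 3.40, 2.89 and 2.49 CPM in the KO-C mice and 9.19, 13.5 and 11.7 CPM in the KO-D mice. Of 52 cytochrome P450 genes 8 rose and 8 fell, among them Cyp1b1 (1.90) and Cyp2d26 (-1.83), and of 43 conjugating transferases 7 rose, with the glucuronosyltransferase gene Ugt1a2 at 0, 0 and 0.0290 CPM in the KO-C mice and 0.821, 0.788 and 1.04 CPM in the KO-D mice (log2 change 3.17, SE 0.32, adjusted p = 5.3e-05), and 7 fell. The 8 antioxidant decreases were 4 without scaling, 5 without any one of the KO-C mice or KO-D replicate 1, and 3 without KO-D replicate 3. The 8 P450 increases were 3 to 5 with any library left out. The 7 transferase increases were 4 without KO-D replicate 3, and the 7 decreases were 4 without scaling or KO-C replicate 1, 3 without KO-C replicate 2 and 2 without KO-D replicate 3, where the 8 P450 decreases were 4. Of 30 genes of sterol and fatty acid synthesis 7 fell and none rose, with mevalonate decarboxylase, Mvd, at 52.8, 53.6 and 53.6 CPM in the KO-C mice and 10.1, 13.4 and 9.40 CPM in the KO-D mice (log2 change -2.29, SE 0.22, adjusted p = 4.5e-05), a count that was 3 without scaling and 4 without any one of the KO-C mice or KO-D replicate 3.

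Among 32 transcription factors of the tubule 8 fell and 1 rose. Esrra (ERR alpha), which drives mitochondrial genes with its partner Ppargc1a, was at 48.5, 40.4 and 49.6 CPM in the KO-C mice and 10.8, 12.9 and 6.602 CPM in the KO-D mice (log2 change -2.23, SE 0.31, adjusted p = 2.5e-04). Klf15, a factor of amino acid and glucose metabolism, was at 52.8, 52.3 and 75.0 CPM in the KO-C mice and 23.6, 20.4 and 18.7 CPM in the KO-D mice (log2 change -1.50, SE 0.17, adjusted p = 9.6e-05). Hnf4a (log2 change -0.69, SE 0.25, adjusted p = 0.0526) and Ppargc1a (log2 change 0.53, SE 0.17, adjusted p = 0.0283) were not called. The count of 8 was 2 without scaling, 5 with GC and length trends removed, 4 without KO-C replicate 1, 5 without KO-C replicate 2, 4 without KO-C replicate 3 and 3 without KO-D replicate 3. Of 24 canonical histone genes 7 fell, all of them Hist1h2b genes, and 1, Hist1h2ac, rose. Hist1h2bk was at 13.3, 11.7 and 15.4 CPM in the KO-C mice and 1.96, 2.86 and 2.38 CPM in the KO-D mice (log2 change -2.45, SE 0.29, adjusted p = 1.2e-04). Their transcripts mostly lack a poly(A) tail, and near-identical members share reads. Of 18 Polycomb, p300 and DNA methyltransferase genes 1 rose and 2 fell, with Ep300 not called (log2 change 0.38, SE 0.22, adjusted p = 0.22). Ezh2, the methyltransferase of Polycomb complex 2, rose by 1.13, with an adjusted p of 0.00456 to 0.0123 over the left-out libraries.

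**Figure D3:**
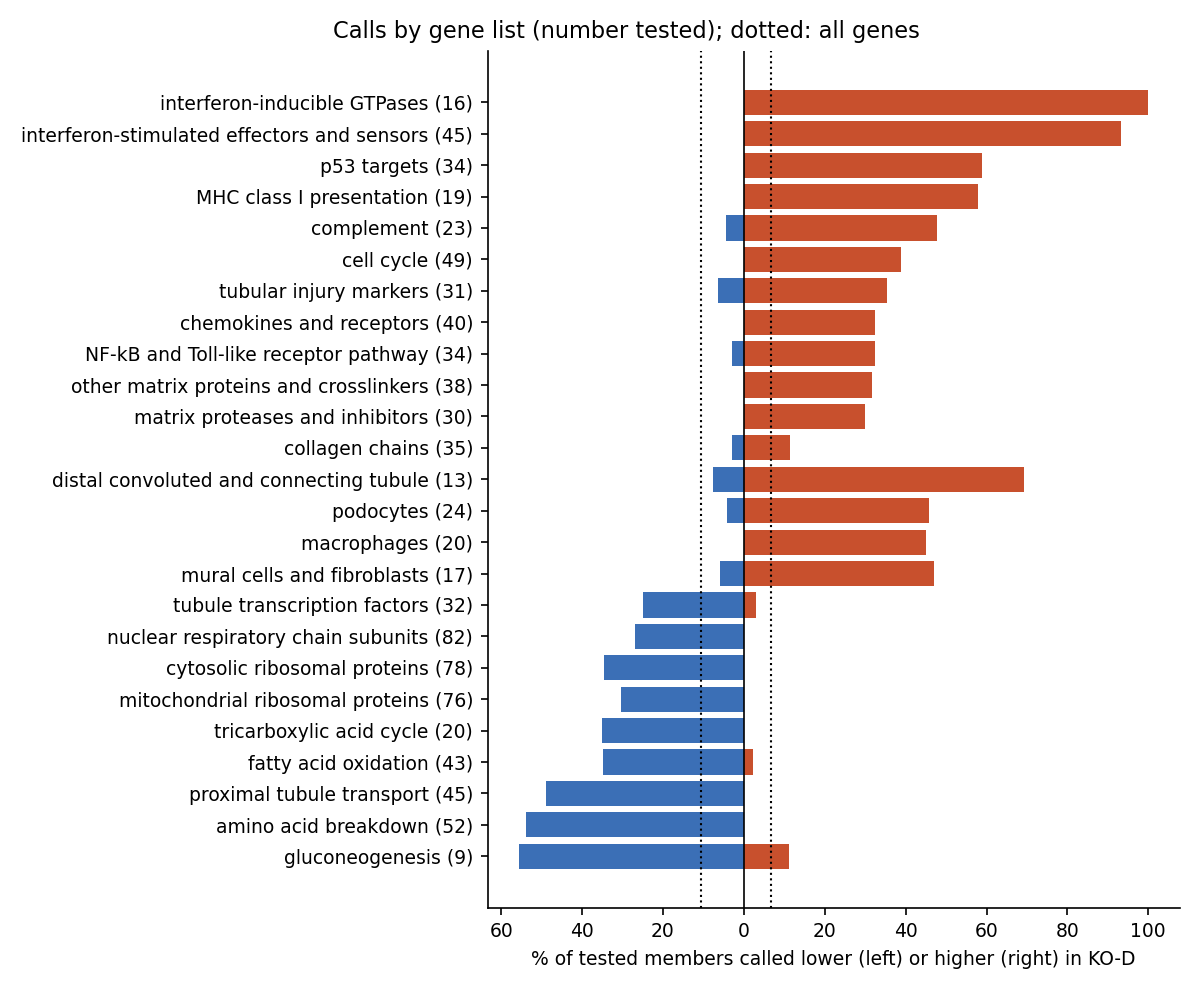
Percent of the tested genes of 25 lists that rose (right) and fell (left) in KO-D, with dotted lines at 6.65% and 10.5%, the shares over all 18461 genes. The interferon lists stand at 93.3% and 100% higher, and amino acid breakdown and proximal tubule transport at 53.8% and 48.9% lower.

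Markers of other cells were read beside these results. Distal convoluted and connecting tubule markers rose in 9 of 13 genes and fell in 1, and their summed level went from 1097 to 1320 CPM in KO-C to 2276 to 4224 CPM in KO-D (2.63 times). Without Calb1 and Trpv5, described above, 7 of the 11 other genes rose, with sums of 875 to 1025 CPM and 1606 to 2545 CPM. Slc12a3, the thiazide-sensitive cotransporter of this segment, was at 203, 198 and 265 CPM in the KO-C mice and 721, 422 and 433 CPM in the KO-D mice (log2 change 1.21, SE 0.26, adjusted p = 0.00417), and over the left-out libraries its adjusted p was 0.00566 to 0.0205. Trpm6, the magnesium channel, rose by 1.95. Of the loop's thick ascending limb 1 of 14 rose, the potassium channel Kcnj1 (1.11), while Umod (log2 change -0.09, SE 0.32, adjusted p = 0.85), Slc12a1 (log2 change 0.46, SE 0.59, adjusted p = 0.58) and Egf (log2 change -0.09, SE 0.26, adjusted p = 0.82) were not called. In the collecting duct, 3 of 12 principal cell genes rose, the subunits of the sodium channel ENaC, with Aqp2 (log2 change -0.96, SE 0.41, adjusted p = 0.0918) and Aqp3 (log2 change -0.60, SE 0.16, adjusted p = 0.0141) not called, and 2 of 15 intercalated cell genes rose.

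Podocyte genes rose in 11 of 24 and fell in 1, with sums of 574 to 701 CPM in KO-C and 734 to 865 CPM in KO-D. Kirrel (Neph1), of the slit diaphragm, was at 2.67, 2.32 and 2.32 CPM in the KO-C mice and 6.79, 8.90 and 7.58 CPM in the KO-D mice (log2 change 1.63, SE 0.21, adjusted p = 1.9e-04). Nphs1 (nephrin) rose by 1.33, with an adjusted p of 0.0130 to 0.0284 over the left-out libraries. The podocyte count was 6 without KO-C replicate 2, 7 without KO-C replicate 3, 7 without KO-D replicate 1 and 4 without KO-D replicate 3. Markers of mural cells and fibroblasts rose in 8 of 17 and fell in 1, from 112 to 157 CPM to 287 to 394 CPM (2.62 times). Ren1 alone made up 117 to 128 CPM of the KO-D sums, and the count of 8 was 5 without KO-C replicate 2, 4 without KO-C replicate 3, 4 without KO-D replicate 2 and 3 without KO-D replicate 3. Macrophage markers rose in 9 of 20 (93.8 to 107 CPM against 116 to 247 CPM). Mpeg1, the perforin of phagocytes, was at 4.196, 3.97 and 3.97 CPM in the KO-C mice and 15.5, 16.9 and 19.1 CPM in the KO-D mice (log2 change 2.05, SE 0.28, adjusted p = 2.3e-04), and Cd68 was not called (log2 change 1.31, SE 0.36, adjusted p = 0.0154). Of 20 lymphocyte markers 2 rose, and their sums overlapped (54.4 to 146 CPM against 87.0 to 146 CPM). Of 24 endothelial markers 1 rose, with Kdr (log2 change 1.04, SE 0.27, adjusted p = 0.0116) and Pecam1 (log2 change 0.89, SE 0.27, adjusted p = 0.0220) not called.

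Few markers of other tissues passed the filter and none of those was called: 5 of 5 erythroid, 5 of 8 adipose and 5 of 6 urothelial markers were tested, but 1 of 5 of muscle, 1 of 7 of the adrenal cortex and 2 of 10 of neutrophils, and pancreas markers summed to 0 CPM in KO-C and to 0 to 0.0948 CPM in KO-D. The part of leukocyte and stromal cells in the interferon, chemokine and matrix results was not tested.

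**Figure D4:**
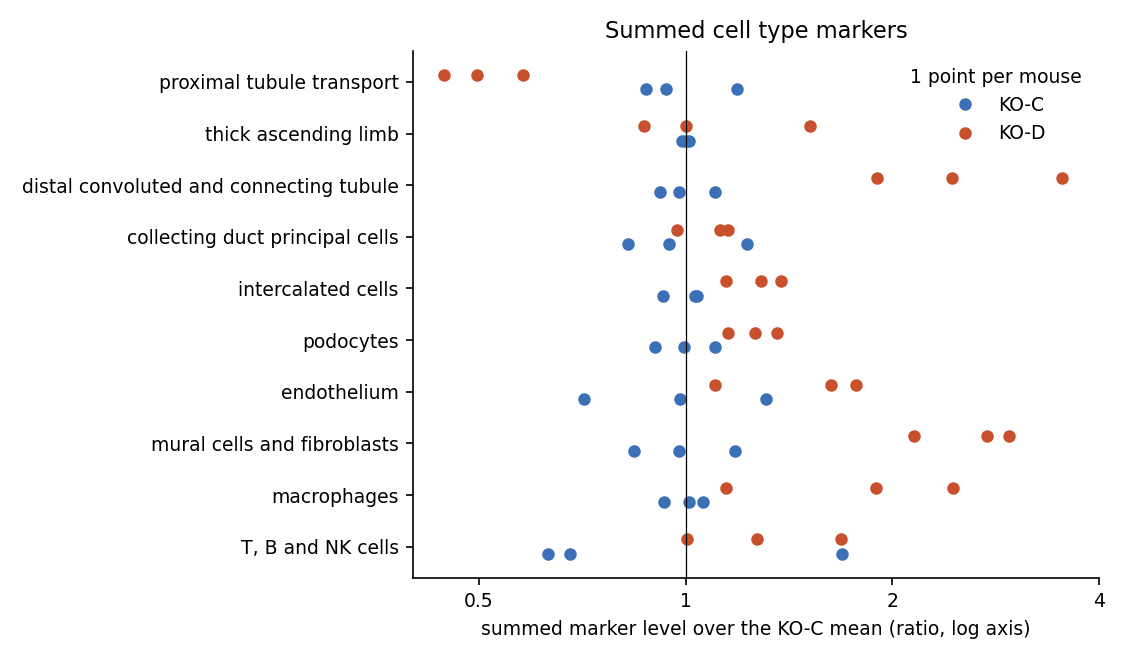
Summed level of the marker genes of 10 cell types in each mouse, divided by the mean of the 3 KO-C mice (horizontal log axis), 1 point per mouse. Proximal tubule sums lie below the controls in all 3 KO-D mice, distal tubule, mural and fibroblast, podocyte, intercalated and macrophage sums above, and the other sums overlap.

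Beyond the lists, the largest increases included Apol9a, of the apolipoprotein L family, at 0.235, 0.666 and 0.203 CPM in the KO-C mice and 31.1, 17.6 and 28.7 CPM in the KO-D mice (log2 change 5.88, SE 0.60, adjusted p = 5.7e-05), with Apol9b, a near-identical copy that may share its reads, up by 5.47. Gc, the vitamin D-binding protein gene, was at 4.70, 5.84 and 6.43 CPM in the KO-C mice and 34.7, 40.9 and 61.2 CPM in the KO-D mice (log2 change 2.96, SE 0.21, adjusted p = 9.9e-06). The Y-linked Rbmy, otherwise a germ cell gene, rose by 4.56 and has many copies that share reads. Among the largest decreases, Fitm1, which partitions fat into lipid droplets, was at 14.2, 12.4 and 12.95 CPM in the KO-C mice and 1.33, 3.02 and 1.25 CPM in the KO-D mice (log2 change -2.87, SE 0.47, adjusted p = 6.8e-04). Ttr, transthyretin, the carrier of thyroid hormone and retinol-binding protein, was at 163, 316 and 332 CPM in the KO-C mice and 39.7, 29.0 and 22.8 CPM in the KO-D mice (log2 change -3.11, SE 0.34, adjusted p = 8.5e-05). Inmt, an N-methyltransferase of indoles, fell by 2.63 and the transglutaminase gene Tgm1 by 2.54. The decreases of smallest p were of moderate size: the receptor Fgfr4 fell by 1.50 and Spr, the last enzyme of tetrahydrobiopterin synthesis, by 1.63. Fgfr4 was at 44.0, 39.4 and 41.3 CPM in the KO-C mice and 13.8, 16.6 and 13.7 CPM in the KO-D mice. Ubb, a polyubiquitin gene among the most abundant that fell, was at 2182, 2269.6 and 2243 CPM in the KO-C mice and 855, 928 and 734 CPM in the KO-D mice (log2 change -1.42, SE 0.21, adjusted p = 3.9e-04). Kap itself, the androgen-regulated protein that took 3.77 to 4.47% of all reads of the KO-C mice and 1.86 to 2.05% of those of the KO-D mice, was not called (log2 change -1.43, SE 0.51, adjusted p = 0.0476).

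The same contrast in wild type mice, WT-D against WT-C, shares no library with it and called 1537 genes (8.33%), 1190 higher (6.45%) and 347 lower (1.88%). One library of that group stood toward the controls: on the first principal component of all 12 libraries WT-D replicate 3 was at 5.92, replicates 1 and 2 at 58.1 and 47.9, and the WT-C mice between -65.4 and -49.4. The genes that rose in the knockout took 1.65% of its reads, against 2.89 and 2.66% in the other WT-D mice. Without WT-D replicate 3 the wild type contrast called 1607 genes higher and 1119 lower. WT-D replicate 1 held reads of other tissue, 682 of Ucp1 (brown fat) and 677 of Cyp21a1 (adrenal cortex), against 1 to 9 of either gene in the other WT-D mice, and without it 391 genes were called higher and 27 lower. Leaving out WT-D replicate 2 gave 660 and 42, and leaving out WT-C replicates 1, 2 and 3 in turn gave 816, 613 and 681 higher and 161, 120 and 93 lower. Of the 3165 calls in the knockout, 980 were also called in the wild type in the same direction, 31.0% of the knockout's calls and 63.8% of the wild type's, and none was called in the opposite direction. By direction, 762 of the 1227 genes that rose (62.1%) were called higher in the wild type too, and 218 of the 1938 that fell (11.2%) were called lower. Without WT-D replicate 3, 1000 of 1600 and 613 of 1962 were. The median log2 change of the genes that rose was 1.50 in the knockout and 1.39 in the wild type, and of those that fell -1.06 and -0.40. These genes were chosen for their size in the knockout, so the medians are a description.

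The difference of the effects, tested gene by gene, passed at no gene (limma, 0 at an adjusted p under 0.01 or 0.05, smallest adjusted p 0.0771), although 2688 genes (14.6%) had an unadjusted p under 0.05. Of the genes that fell in the knockout 1138 (58.7%) had such a p, and of those that rose 65 (5.30%). Both sets were called on the knockout effect, which is itself part of the difference. Their shares are therefore a description and no test of genotype. edgeR called 0 and DESeq2 261 at an adjusted p under 0.01, and 720 at 0.05 with DESeq2. The 0 of limma rests on single libraries: without WT-D replicate 2 it called 103 genes at 0.01 and 659 at 0.05, and without KO-D replicate 2 0 and 506, while leaving out any other library gave 0 at both. In the lists, the effectors of interferon rose in 42 of 45 in both genotypes, and the GTPases in 16 of 16, or in 9 in the wild type without WT-D replicate 1. Amino acid breakdown fell in 28 of 52 genes in the knockout and 9 in the wild type (medians -0.82 and -0.50), and proximal tubule transport in 22 and 6 of 45 (-0.98 and -0.60). The respiratory chain fell in 22 and 1 of 82 and the cytosolic ribosome in 27 and 1 of 78, although their medians were close, -0.49 and -0.55 for the first and -0.56 and -0.50 for the second. Without WT-D replicate 3 the wild type counts of these 4 lists were 19, 14, 19 and 4, and without any one of the other wild type libraries the first was 1 to 3 and the second 0 to 2. Collagens rose in 4 and 16 of 35 (medians 0.81 and 1.45) and other matrix proteins in 12 and 21 of 38 (0.97 and 1.64), with 6 and 10 in the wild type without WT-D replicate 1, and 7 collagens without WT-C replicate 2 or 3. No list was tested for a difference. Hpd changed by -2.81 in the knockout and -1.71 in the wild type (difference -1.10, SE 0.38, adjusted p = 0.19), Pcx by -2.29 and -1.33 (difference -0.95, SE 0.38, adjusted p = 0.26) and Col3a1 by 1.44 and 2.14 (difference -0.70, SE 0.63, adjusted p = 0.67).

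**Figure D5:**
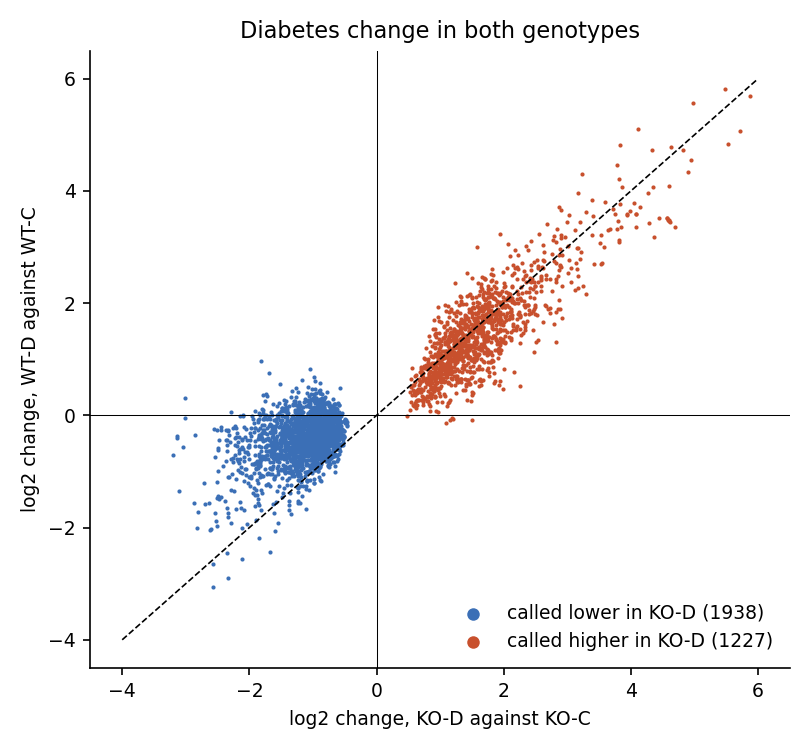
Log2 change in the knockout (KO-D against KO-C, horizontal axis) and in the wild type (WT-D against WT-C, vertical axis) of the 3165 genes called in the knockout, 1 point per gene, with the line of equal change. Genes that rose lie mostly along the line (medians 1.50 and 1.39), and genes that fell mostly between it and 0 (medians -1.06 and -0.40).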

How the data were processed

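Kidney RNA (RNeasy Mini) from 12 mice was made into TruSeq RNA V2 libraries and sequenced on a NovaSeq6000. The authors aligned reads with STAR 2.7.3a to mm10 (GENCODE M23), counted them per gene, used R 3.6.1 and edgeR 3.28.0, and deposited 1 table of CPM, in which each library sums to 1000000. A second table holds the authors' log2 fold changes and adjusted p values and was not used. Values were whole multiples of 1 read to within 4.4e-09 reads, so read counts were recovered for alternatives. Errors are the spread between mice, and limits from a count of 0 cover counting error only.

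CPM were scaled by TMM and filtered with filterByExpr (at least 10 reads, 0.284 CPM in a library of median size, and 15 in total), leaving 18461 of 55421 genes. limma 3.58.1 (R 4.3.3) was fitted with a trend to log2(CPM + 0.1) of all 12 libraries, with 4 group means, 8 residual degrees of freedom and Benjamini-Hochberg adjustment. In simulated data for KO-D against KO-C (17222 genes), 100 genes were changed 2-fold and 100 changed 4-fold, evenly up and down. Of these, 30% and 88% were recovered with 1 false call. All changed genes were above 1 CPM in KO-C. Changes of rarer genes, and a shift of as many genes as in the real data, were not simulated. Replicates are mice as labelled. Alternatives were edgeR 4.0.16, DESeq2 1.42.0, other scalings, pseudocounts and filters, knockout libraries alone, a replicate block, GC and length trends removed, thinned reads and each library left out. Lengths and GC content came from GENCODE M21 and promoters from RefSeq on GRCm38.p6.

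The gene lists and the rule for named genes were chosen with earlier results of these data known. The rule took the 12 largest increases and decreases among called genes with a mean of at least 1 CPM, the 6 genes of smallest p and the 6 most abundant in each direction, up to 4 genes of smallest p per list, and a set of kidney genes whatever their value. Members named only in a count, and the families in the closing section, fall outside it and were chosen after their values were seen. Some genes that the rule took are not reported here.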

Additional observations from a re-analysis of the deposited data

Results flagged for a closer look

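Adipoq, the adiponectin gene of fat cells, was lower in every KO-D mouse than in any KO-C mouse and higher in every WT-D mouse than in any WT-C mouse, by -2.35 and 3.62 on the log2 scale, a difference of -5.98. It was at 0.381, 0.0952 and 1.74 CPM in the KO-C mice and 0, 0 and 0.0297 CPM in the KO-D mice, close to the level of single reads in KO-D, at 24.8, 0.459 and 0.0344 CPM in the WT-D mice and at 0 in all WT-C mice, and limma's test of the difference did not pass (adjusted p = 0.15). The summed adipose markers were at 58.7 to 68.0 CPM in KO-C and 23.3 to 77.4 CPM in KO-D. WT-D replicate 1 also held 241 reads of Retn and 143 of Lep, other genes of fat, against 0 to 3 in the other WT-D mice. The KO-C mice held 5, 1 and 23 reads of Retn, 4, 1 and 14 of Lep and 19, 4 and 0 of Ucp1. In the KO-D mice these were 0, 0 and 1, then 0, 2 and 0, and 0 in all. What part attached fat had in the Adipoq difference was not tested.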

How the results depend on the processing

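Of the alternatives to the 1227 genes higher and 1938 lower, edgeR gave 1174 and 1851, DESeq2 1744 and 2498, RLE scaling 1282 and 1913, knockout libraries alone 1325 and 1929, and pseudocounts of 0.02, 0.5 and 1 gave 1162, 1235 and 1207 higher and 1922, 1919 and 1888 lower. Upper-quartile scaling turned the majority, with 45.8% of calls lower against 61.2%, and without scaling 26.3% were lower (640 genes). No filter gave 941 and 1688 among 34472 genes, and a minimum mean of 1 CPM gave 1092 and 1686. Leaving out 1 library gave 562 to 950 higher and 881 to 1683 lower. Leaving out 1 wild type library, chosen after seeing the data, gave 1104 to 1600 and 1569 to 1973. The difference between genotypes was called at 0 genes except with DESeq2 (261) and without WT-D replicate 2 (103), and at an adjusted p under 0.05 also without KO-D replicate 2 (506). The cause of these shifts was not tested. Of the list counts, upper-quartile scaling gave 3 lower genes of gluconeogenesis, 2 of glycolysis, 4 of the tricarboxylic acid cycle, 4 of sterol synthesis and 5 tubule factors, and DESeq2 gave 8 higher growth factor genes. No filter gave 3 of gluconeogenesis, 2 of glycolysis and, higher, 4 P450, 2 collagen, 6 other matrix and 4 mural genes. A minimum mean of 1 CPM gave 3 of gluconeogenesis and, higher, 3 transferases and 7 chemokine entries, and a pseudocount of 1 gave 5 mural genes.

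Whether replicate numbers pair the mice was looked at in the deviations from the group means. In these, same-numbered libraries of different groups correlated at -0.35 to 0.29, and 1 of 12 correlated best with its own number. With 3 mice per group such a check is weak and cannot exclude a pairing. With a replicate block 1009 genes rose and 1520 fell, 7 named genes lost their call and the tubule factors that fell were 5. Among all named genes 26 lost it without scaling, 10 with GC and length trends removed, and 48 without KO-D replicate 3, the most for any library. Calls were gained too, 10 without KO-D replicate 1, the most for any of the 6 libraries. Cdk1, given above as not called, passed without KO-C replicate 2, and Akr1b3 and Aqp3 passed without KO-C replicate 3.

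Named genes that changed sign were not called. Hmox1 turned to -0.10 with edgeR and -0.0857 with DESeq2, and Kl to -0.0328 without a filter. With a minimum mean of 1 CPM Col4a3 was at 0.0025 and Hspa5 at 0.0018. With upper-quartile scaling Nqo1 was at 0.039, Egf at 0.048, Col4a3 at 0.077, Umod at 0.045 and Hspa5 at 0.077. Without scaling mt-Nd2 was at 0.015, Per1 at 0.060, Cpt1a at 0.13, Nqo1 at 0.24, Ppara at 0.10, Egf at 0.25, Col4a3 at 0.28, Umod at 0.25, Cdkn2b at 0.015 and Hspa5 at 0.28. With GC and length trends removed Nfkb1 was at -0.10, Per1 at 0.050, Slc5a1 at -0.16, Cdkn2b at 0.13 and Kl at -0.32. With 1 library left out Cdkn2b ranged from -1.31 to 1.01, Hmox1 from -0.19 to 0.47, Kl from -0.32 to 0.26, Slc5a1 from -0.036 to 0.32, Umod from -0.42 to 0.15, Ppara from -0.78 to 0.44, Egf from -0.27 to 0.14, Col4a3 from -0.15 to 0.0078, Hspa5 from -0.31 to 0.34, Nqo1 from -0.24 to 0.027 and Slc12a1 from -0.14 to 1.27.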

Other observations

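Some gene families, mostly outside the lists, were picked after their values had been seen. Aim2 and Trim30a are counted both here and in the lists above. All 11 tested genes of the p200 family of interferon-induced DNA sensors rose (log2 changes 1.90 to 4.09, median 2.89), as did 6 of 7 Slfn genes (median 2.91), 7 of 8 genes of the Trim6, Trim12, Trim30 and Trim34 cluster (median 2.21) and 6 of 7 Ms4a4 and Ms4a6 genes of leukocytes (median 2.76). Over all tested genes 6.65% rose and 10.5% fell. Several members, such as Ifi214, Slfn4 and Ms4a4a, were under the filter's 0.284 CPM in every KO-C mouse, as was Rbmy below. Such genes did not pass the filter through KO-C and had little room to fall, so their direction is no separate support. In the other direction 6 of 8 Nat8 acetyltransferase genes fell (median -1.72) and 3 of 5 Ces2 carboxylesterase genes (median -0.94), with Nat8f4 (0.21) and Ces2e (0.80) on the other side of 0 and not called. Near-identical copies within these families may share reads.

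The Y-linked Rbmy and its predicted copies, also picked after their values had been seen, rose by 4.36 to 4.69. Their values were nearly the same in every library, so the 9 entries are not separate results. Rbmy was at 0.0293, 0 and 0.0869 CPM in the KO-C mice and 6.73, 1.08 and 3.87 CPM in the KO-D mice. For Gm21677 the values were 0.0293, 0 and 0.0869 CPM and 6.98, 1.15 and 3.84 CPM. Among annotation classes, 143 of 1961 processed pseudogenes (7.29%) fell and 12 (0.61%) rose. Of 1339 long non-coding RNAs 45 (3.36%) fell and 43 (3.21%) rose. All of these shares are below those over all tested genes, 10.5% that fell and 6.65% that rose.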
